A study of Sus scrofa with 2 samples.

Results

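Acinar nuclei of the pig pancreas were taken from single-nucleus RNA sequencing with 7 marker genes that encode no digestive enzyme, which were CHN2, EFEMP1, AGMAT, EXTL1, ADAD1, CDH4 and RBPJL. A barcode with 270 to 3700 genes and fewer than 13000 unique molecular identifiers (UMIs, which tag single RNA molecules) was counted as an acinar nucleus when these genes held at least 3 UMIs and at least 0.6% of its UMIs, the ductal genes SLC4A4, PKHD1 and SCTR less than 0.3%, and the endocrine genes PCSK2, KCNB2, GRIA3, NOL4, RIMS2, RAB3C and SNTG1 less than 0.2%. In all, 18356 of 28097 barcodes within the gene and UMI limits were acinar nuclei, of 28583 barcodes deposited. The WT library gave 8860 acinar nuclei of 13189 barcodes (67.2%, exact binomial 95% interval 66.4 to 68.0%) and the PIGinH11 library 9496 of 14908 (63.7%, 62.9 to 64.5%). Both intervals, like all others given here, cover counting error only.

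The WT library came from 1 wild-type Bama pig, and the PIGinH11 library from 1 transgenic Bama pig that carried human GIPRdn, hIAPP and PNPLA3 I148M at the H11 locus of chromosome 14, under promoters specific for beta cells or liver. Each pig was male and 18 months old, and had eaten control diet up to 6 months of age and then a high-fat and high-sucrose diet (HFHSD, with 37% sucrose, 53% control diet and 10% lard) for 12 months, so that the diet was shared by both groups. A piece of about 0.2 g was cut from the body of the pancreas of each pig. With 1 library per group, the genotype, the animal and the library cannot be told apart, no test between the groups was made, and a difference is described by its size and counting interval alone.

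The acinar cell builds and exports the digestive enzymes of the pancreas. Its rough endoplasmic reticulum (ER) takes up newly made proteases, lipases and nucleases, which are packed as inactive zymogens into granules and released when acetylcholine or cholecystokinin raises cytosolic calcium. The transcription factor complex of PTF1A and RBPJL, together with NR5A2, GATA4, GATA6 and BHLHA15, keeps the enzyme genes active. In nuclei, sequencing reads unspliced and newly made transcripts, together with cytoplasmic RNA that leaks on lysis and enters droplets as free RNA.

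Acinar nuclei of WT held more UMIs than those of PIGinH11. The median acinar nucleus held 3102 UMIs and 1646 genes in WT (10th to 90th percentile 1141 to 7375 UMIs) and 1278 UMIs and 862 genes in PIGinH11 (630 to 3632 UMIs), a ratio of 2.43. Summed over acinar nuclei, WT gave 33074759 UMIs and PIGinH11 16895382. The other classes, chosen by their own marker genes, counted 2144 and 1865 ductal, 227 and 252 endocrine, 161 and 216 endothelial, and 179 and 192 stellate nuclei in WT and PIGinH11, and 1627 and 2914 barcodes were in no class. Median depth was higher in WT in these classes too, at 3433 and 1156 UMIs in ductal and 3609 and 2053 in endocrine nuclei. Endothelial nuclei had 3854 and 1973 UMIs, and stellate nuclei 3229 and 1749. Over all deposited barcodes the medians were 3216 and 1181.5 UMIs, so the gap in depth was not particular to acinar nuclei. The libraries shared 60 barcode sequences, of which 32 were acinar in both.

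Each of the 7 markers was also abundant in nuclei that were chosen without it. When the other 6 chose the acinar nuclei, and held the other classes under 0.3%, the level of the marker left out was higher in acinar than in ductal, endocrine, endothelial and stellate nuclei of the same library in every case, by 2.04-fold to 66.2-fold. RBPJL, the acinar partner of PTF1A, was found at 1861 UMIs per 1000000 (CPM) in WT acinar nuclei against 51.6 in ductal nuclei, and at 2537 against 137 in PIGinH11. The narrowest margins were in PIGinH11, those of CDH4 (R-cadherin) and CHN2, a Rac GTPase-activating protein, over endocrine nuclei. CDH4 was 4.73-fold and 2.06-fold above endocrine nuclei in WT and PIGinH11, and CHN2 13.4-fold and 2.04-fold. With every nucleus thinned to 500 UMIs, EFEMP1 (fibulin-3) had a UMI in 86.4% of WT and 86.0% of PIGinH11 acinar nuclei chosen without it, against 12.2% and 11.2% of endothelial, 27.4% and 22.6% of stellate, and 11.4% and 20.6% of ductal nuclei. The plot of marker levels shows all 7 in each class.

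**Figure D1:**
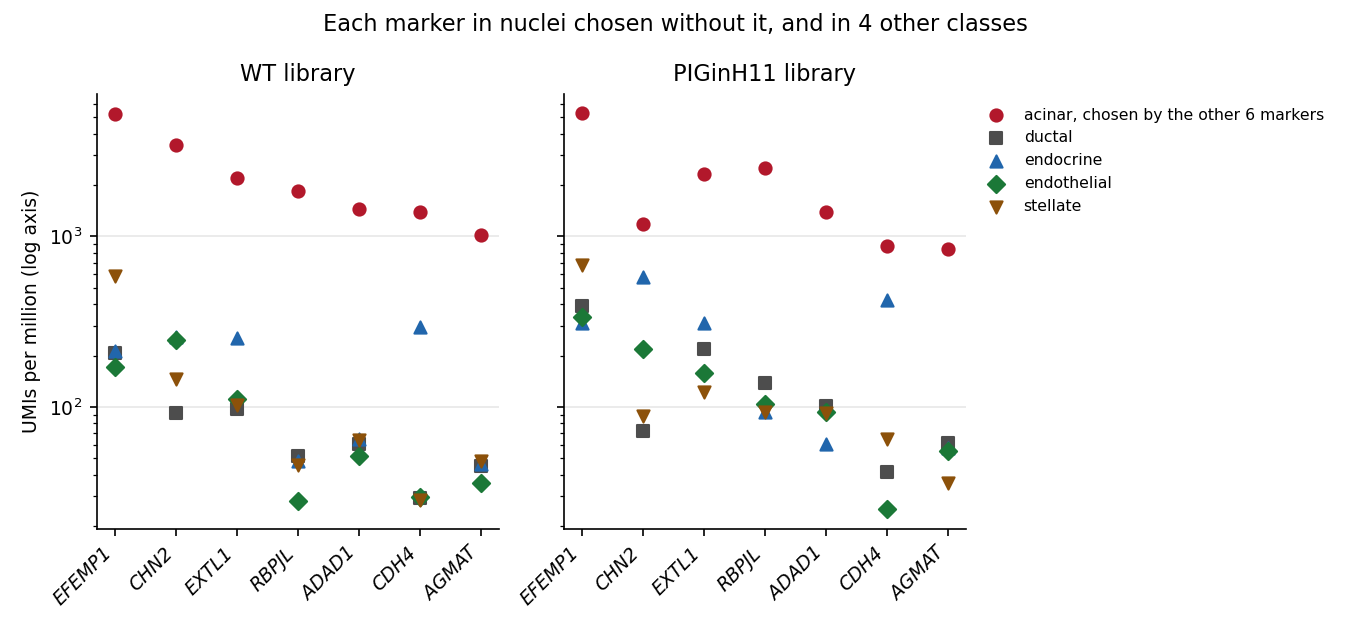
Level of each marker (y axis, CPM, log axis) in acinar nuclei chosen by the other 6 markers and in 4 other classes of nuclei, for the WT (left) and PIGinH11 (right) library. Each point is a sum over nuclei of 1 library. Red acinar points lie above all other classes for all 7 markers, and CHN2 and CDH4 in PIGinH11 endocrine nuclei come closest.

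As the rule used them, the levels of the markers between the libraries are given as a description. Levels are normalised CPM, which are CPM multiplied by 1 factor per library so that the median tested gene has the same level in both, since the median log2 ratio of PIGinH11 over WT by CPM was 0.16. CHN2 was found at 3615 normalised CPM in WT and 1125 in PIGinH11 (log2 ratio -1.68, 95% interval -1.71 to -1.66), the widest gap among the 7. CDH4 had a log2 ratio of -0.82, AGMAT, which encodes agmatinase, -0.42, ADAD1 -0.20, EFEMP1 -0.14, EXTL1 -0.06 and RBPJL 0.29. Few nuclei lay near the limit of 0.6%. Between 0.6 and 0.7% of marker UMIs there were 53 members in WT and 203 in PIGinH11, with digestive enzymes at 27.1% and 4.93% of their UMIs, and between 0.5 and 0.6% there were 59 and 176 barcodes outside, with 21.7% and 4.93%. The barcodes at the limit in WT were therefore rich in enzyme UMIs on both sides of it, and those in PIGinH11 were not.

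Digestive enzymes made up 8.47% of the UMIs of acinar nuclei in WT (8.46 to 8.48%) and 6.44% in PIGinH11 (6.43 to 6.45%), over 16 enzyme genes with a symbol. Of the listed enzymes, 8 of 15 proteases, 6 of 6 lipases and 2 of 6 amylases and nucleases could be matched by symbol. The amylases, PRSS1, PRSS3, CTRB1, CTRB2, CELA2B, CELA3A and CELA3B could not. Genes without a symbol were not counted as enzymes, so the shares do not cover the whole enzyme set. When the enzyme UMIs found per endothelial and stellate nucleus were subtracted as free RNA, the order turned, at 4.34% in WT and 5.64% in PIGinH11. The most abundant named gene by UMIs, which were not divided by gene length, was PRSS2 (anionic trypsinogen) in WT, with 3.36% of acinar UMIs, and PNLIPRP1 (a lipase-related protein of the acinar cell) in PIGinH11, with 1.90%. PRSS2 held 0.625% of acinar UMIs in PIGinH11, and PNLIPRP1 0.691% in WT. Among the 10 genes with the most UMIs, both libraries had PRSS2, CPA1, PNLIPRP1, CEL, EFEMP1 and the unnamed ENSSSCG00000048856 and ENSSSCG00000023127.

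Single nuclei differed more widely in enzyme content in WT than in PIGinH11. When 500 UMIs were drawn at random from each nucleus, all of which were deep enough, enzymes held a median of 7.80% of UMIs in WT acinar nuclei (5th to 95th percentile 4.0 to 18.2%) and 5.80% in PIGinH11 (3.20 to 9.80%). More than 10% was reached by 2585 of 8860 nuclei (29.2%) in WT and 420 of 9496 (4.42%) in PIGinH11. The distributions overlapped. By percentile they lay further apart in the upper tail, with 99th percentiles of 30.8% in WT and 12.6% in PIGinH11. By share of nuclei, the widest gap lay from 4 to 5% of enzyme UMIs, with 8.57% of WT and 18.2% of PIGinH11 nuclei. PRSS2 alone had a median of 2.80% in WT and 0.60% in PIGinH11, while PNLIPRP1 had 0.60% and 1.60%. Nuclei that should lack the enzymes also carried them. In WT, more than 10% was also reached by 10.6% of stellate, 8.82% of ductal, 8.81% of endocrine and 4.97% of endothelial nuclei. In PIGinH11 it was reached by 0.214% of ductal nuclei and by 0% of endocrine, endothelial and stellate nuclei. The part of free RNA in the upper tail of acinar nuclei was not tested. PRSS2 had a UMI in 99.97% of WT acinar nuclei at this depth and in 99.4% of WT endothelial nuclei, and in 88.9% of PIGinH11 acinar and 42.6% of endothelial nuclei.

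**Figure D2:**
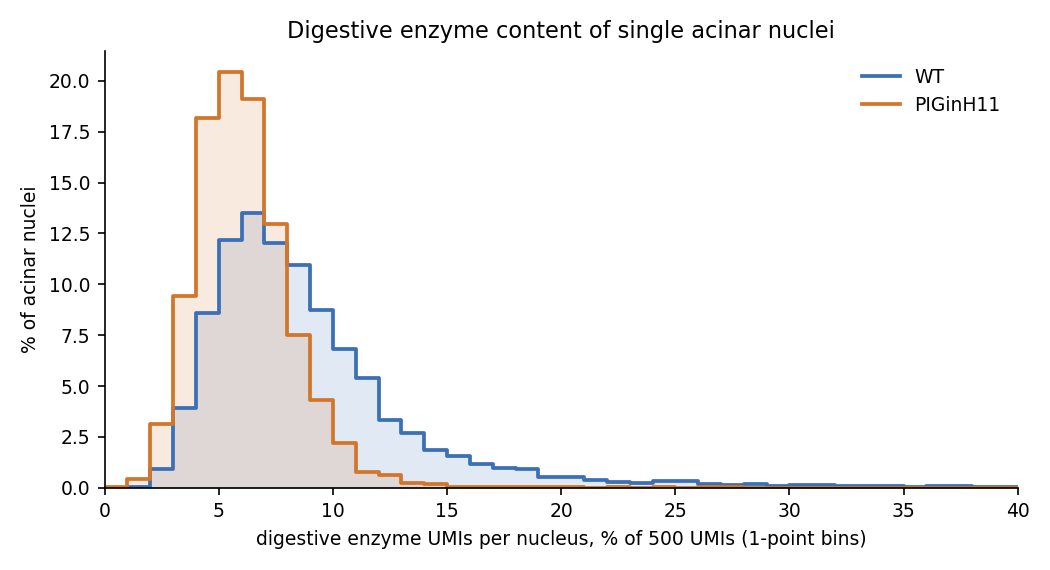
Share of digestive enzyme UMIs per acinar nucleus (x axis, % of 500 UMIs after thinning, bins of 1 point, drawn up to 40%) against the percentage of acinar nuclei of each library (y axis). The WT curve (8860 nuclei) has a median of 7.80% and a long upper tail, and the PIGinH11 curve (9496 nuclei) has a median of 5.80% and few nuclei above 10%.

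Of 13937 genes that reached 100 UMIs summed over both libraries, none of which was at 0 in a library, 1243 (8.92%) had a level at least 2-fold higher in PIGinH11 acinar nuclei and 529 (3.8%) at least 2-fold lower. By CPM without the common factor the counts were 1734 and 364. Higher genes were more frequent at low levels, with 17.1% of 4562 genes under 10 normalised CPM in the higher library against 4.95% of 9375 genes above it, while lower genes made up 3.86% and 3.77%. The 25th and 75th percentiles of the log2 ratio were -0.34 and 0.43.

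Among the digestive enzymes matched by symbol, 15 of 16 were tested, with 4 lower and 3 higher past 2-fold and a median log2 ratio of -0.67, where 3.8% and 8.92% of all genes passed. Of 7 tested proteases, 3 were 2-fold lower in PIGinH11, 1 was higher and 3 were between. PRSS2 (Sscrofa11.1 chromosome 18, 7443327 to 7446625) was found at 35545 normalised CPM in WT and 5909 in PIGinH11, 6.02-fold apart (log2 ratio -2.59, 95% interval -2.60 to -2.58). Its span lies inside that of the RefSeq gene LOC102167789 (7431310 to 7474188). CELA2A, a pancreatic elastase, had 2825 normalised CPM in WT and 798 in PIGinH11 (log2 ratio -1.82, 95% interval -1.85 to -1.80). CTRC, the chymotrypsin that also degrades trypsinogen, had 4548 normalised CPM in WT and 1954 in PIGinH11 (log2 ratio -1.22, 95% interval -1.24 to -1.20). All 3 had the higher level in WT, and with free RNA subtracted, as described with the enzyme RNA outside acinar nuclei, only PRSS2 of them was 2-fold lower. CPA1 and CPB1, the carboxypeptidases that trim protein ends, were within 2-fold (log2 ratios -0.74 and -0.67), as did the elastase CELA1 (0.12). The exception was CTRL, a chymotrypsin-like protease, with 9 UMIs in WT and 1124 in PIGinH11, or 0.288 normalised CPM in WT and 62.9 in PIGinH11 (log2 ratio 7.77, 95% interval 6.84 to 8.90).

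The lipases went in both directions. PNLIP, the triglyceride lipase, had 2409.8 normalised CPM in WT and 6209 in PIGinH11 (log2 ratio 1.37, 95% interval 1.35 to 1.38), and PNLIPRP1 7310.4 normalised CPM in WT and 17968 in PIGinH11 (log2 ratio 1.30, 95% interval 1.29 to 1.31). Both were higher in PIGinH11, and the genes lie next to each other on chromosome 14, PNLIP at 126771920 to 126789097 and PNLIPRP1 at 126796943 to 126812152. PNLIPRP2, a galactolipase, was nearly level (1427 normalised CPM in WT and 1139 in PIGinH11, log2 ratio -0.33), and so was CEL, the carboxyl ester lipase (-0.14). CLPS, the colipase that PNLIP needs in the presence of bile salts, had 4304 normalised CPM in WT and 2491 in PIGinH11 (log2 ratio -0.79). PLA2G1B, the secreted phospholipase A2, had 1811 normalised CPM in WT and 842 in PIGinH11 (-1.10, or -0.94 by CPM). Of the nucleases, DNASE1 had 2529 normalised CPM in WT and 4926 in PIGinH11 (log2 ratio 0.96, or 1.12 by CPM) and RNASE1 179 normalised CPM in WT and 98.7 in PIGinH11 (-0.86).

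**Figure D3:**
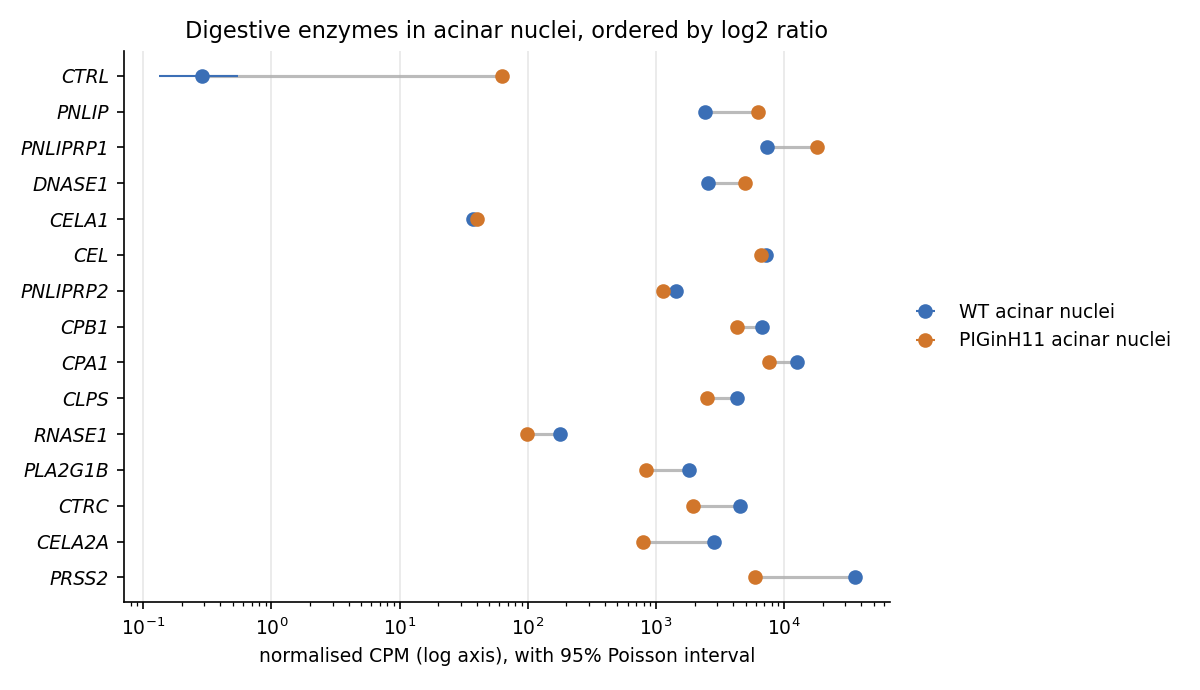
Levels of the 15 tested digestive enzymes in acinar nuclei (x axis, normalised CPM, log axis, with 95% Poisson intervals mostly smaller than the points) in WT (blue) and PIGinH11 (orange), ordered by log2 ratio. Blue lies to the right of orange from PRSS2 up to PNLIPRP2 and CEL, and orange to the right for PNLIP, PNLIPRP1, DNASE1 and, narrowly, CELA1, with CTRL at 0.288 in WT and 62.9 in PIGinH11.

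Enzyme RNA outside acinar nuclei differed between the libraries as well. Endothelial and stellate nuclei, 331 in WT and 381 in PIGinH11, held 68.2% as many PRSS2 UMIs per nucleus as acinar nuclei in WT and 24.1% in PIGinH11, 74.4% and 20.6% for CELA2A, 66.9% and 22.3% for CTRC, and 63.7% and 11.9% for PNLIP. PNLIPRP1 was closer, at 14.1% and 9.52%, and the marker RBPJL stood at 1.74% and 4.40%. In ductal nuclei the log2 ratio of PRSS2 was -3.70, in endocrine nuclei -4.39, and that of PNLIP -0.54 and -1.41, so that PNLIP was higher in acinar nuclei and lower elsewhere. When the UMIs per endothelial and stellate nucleus were subtracted from those of acinar nuclei, 1 enzyme was 2-fold lower, PRSS2 (-1.33), and 5 were 2-fold higher, with PNLIP at 2.64, PNLIPRP1 at 1.37, CELA1 at 2.07, RNASE1 at 1.35 and CTRL at 7.60. The values of CELA1 and RNASE1 are uncertain, since the subtraction in WT rests on 33 and 176 UMIs and left 0.0317 and 0.0999 UMIs per acinar nucleus, and no interval was computed. Among the 1197 and 4851 acinar nuclei with fewer than 1300 UMIs, PNLIP stood at 0.17, CPA1 at -1.26, CPB1 at -1.34, CLPS at -1.95, RNASE1 at -1.91, CELA1 at -0.64 and PRSS2 at -3.32. After the subtraction, CELA2A stood at -0.19, CTRC at 0.01 and PLA2G1B at 0.04, and CLPS, with 77.9% and 33.2% as many UMIs in endothelial and stellate nuclei, at 0.81. The gaps of CELA2A, CTRC and PLA2G1B were thus under 2-fold once free RNA was subtracted, and that of PRSS2 was smaller. CLPS and RNASE1 went either way with the processing, since each was 2-fold lower when nuclei were weighted alike (both -1.14).

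Proteins of the zymogen granule showed 1 of 6 tested genes 2-fold lower and none higher (median log2 ratio -0.61), beside 3.8% and 8.92% of all genes. KLK1, tissue kallikrein, had 416 normalised CPM in WT and 103 in PIGinH11 (log2 ratio -2.01, 95% interval -2.08 to -1.94). Endothelial and stellate nuclei held 62.8% and 23.0% as many KLK1 UMIs per nucleus in WT and PIGinH11, and after subtraction KLK1 stood at -0.96, under 2-fold. GP2, the main glycoprotein of the granule membrane, had the higher level in PIGinH11 (1319.6 normalised CPM in WT and 2385 in PIGinH11, log2 ratio 0.85, or 1.02 by CPM). SYCN (syncollin) had a log2 ratio of -0.56, TMED6, a protein of ER to Golgi transport, -0.78, the serpin SERPINI2 -0.67 and SPINK1, the trypsin inhibitor, -0.17, which turned to 0.50 after subtraction. Under a UMI limit of 1300, SYCN, SERPINI2 and SPINK1 passed 2-fold, so the count of granule genes past it depends on that limit.

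Of 17 tested transcription factors of the acinar cell, 1 was 2-fold higher and 2 lower in PIGinH11, with a median of -0.22, beside 8.92% and 3.8% of all genes. NR5A2, a nuclear receptor that acts with the PTF1A complex, had 886 normalised CPM in WT and 886 in PIGinH11 (log2 ratio 0.00, 95% interval -0.03 to 0.03). PTF1A itself was sparse, with 502 UMIs in WT and 380 in PIGinH11 (log2 ratio 0.41, 95% interval 0.21 to 0.60), and GATA4 and GATA6 stood at -0.09 and 0.19. The lower factors were ONECUT1 (277 normalised CPM in WT and 96.8 in PIGinH11, -1.51), a regulator of early pancreas formation, and XBP1 (260.5 normalised CPM in WT and 109 in PIGinH11, -1.25), the factor that expands the secretory ER. BHLHA15 (MIST1), which arranges the granules, had 66.7 normalised CPM in WT and 38.2 in PIGinH11 (log2 ratio -0.81, 95% interval -0.93 to -0.68). ESRRG, the one higher factor, had only 104 UMIs in WT and 137 in PIGinH11 (log2 ratio 1.20, 95% interval 0.83 to 1.59). The abundant factors MECOM (-0.31) and FOXP2 (-0.22) were near level.

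Genes that receive and pass on the secretory stimulus were spread around 0. Of 18 tested, 2 were 2-fold higher and none lower (median 0.07), a share near that of all genes (8.92% higher). CCKAR, the cholecystokinin receptor, had 420.2 normalised CPM in WT and 211 in PIGinH11 (log2 ratio -0.99, 95% interval -1.04 to -0.94), just short of 2-fold, whereas GRPR, the receptor for gastrin-releasing peptide, named after its values were seen, was level (117 normalised CPM in WT and 114 in PIGinH11, -0.04). The phospholipase PLCB1 stood at -0.42 and the calcium release channel ITPR2 at 0.26. RYR2, another calcium release channel, was higher at a low level (329 UMIs in WT and 409 in PIGinH11, log2 ratio 1.12). In the exocytosis list none of 11 tested genes passed 2-fold (median -0.0022), with RAB27B, a GTPase of granule docking, at -0.52 and its partner MYRIP at 0.76.

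The machinery that makes secretory proteins had most of its genes within 2-fold, with medians below 0. Of 26 tested genes of the translocon and of oligosaccharyl transfer, 22 had a log2 ratio below 0, where 50% of all genes did, with a median of -0.51. Only 1 was 2-fold lower and none higher, a share near that of all genes (3.8% lower and 8.92% higher). That gene was SSR4, a subunit of the translocon-associated complex, with 48.7 normalised CPM in WT and 14.7 in PIGinH11 (log2 ratio -1.73, 95% interval -1.92 to -1.54). SSR3, of the same complex, had 355 normalised CPM in WT and 204 in PIGinH11 (-0.80), the signal peptidase subunit SPCS2 -0.44 and the translocation helper SEC63 -0.36. ER chaperones and genes of the unfolded protein response gave 23 of 28 below 0 and a median of -0.41. Again 1 was 2-fold lower and none higher, near the 3.8% of all genes that were lower. This was TRIB3, a pseudokinase induced by stress (119 UMIs in WT and 15 in PIGinH11, log2 ratio -2.18, 95% interval -3.06 to -1.40). ERO1B, the oxidase that feeds disulphide formation, stood at -0.53, the stress sensors ATF6 and EIF2AK3 (PERK) at -0.51 and -0.42. PDIA2, the disulphide isomerase of the pancreas, went the other way (577 normalised CPM in WT and 1133 in PIGinH11, log2 ratio 0.97, 95% interval 0.94 to 1.00).

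Ribosomal protein genes were lower in PIGinH11 acinar nuclei in 53 of 54 cases, 17 of them past 2-fold and none higher past it, with a median of -0.89, where 3.8% of all genes were 2-fold lower. By CPM 10 passed 2-fold, and with each nucleus weighted alike 36. RPLP1, of the ribosomal stalk, had 335 normalised CPM in WT and 104 in PIGinH11 (log2 ratio -1.68, 95% interval -1.76 to -1.61), and RPS24, the one closest to level among the 4 most abundant, 219 normalised CPM in WT and 183 in PIGinH11 (-0.26). RPL10A was the gene above 0 (0.60). As a share of acinar UMIs, ribosomal protein genes held 0.58% in WT and 0.352% in PIGinH11. Mitochondrial transcripts, which do not come from the nucleus, were lower in 12 of 12 tested genes, 10 past 2-fold (median -1.51), and held 0.139% and 0.052% of UMIs. COX1, a subunit of cytochrome oxidase, had 446 normalised CPM in WT and 109 in PIGinH11 (-2.04). RPLP1 and COX1 were also lower in ductal (-1.67 and -2.43) and endocrine nuclei (-2.90 and -2.97), and the part of cytoplasmic RNA in the nuclei was not tested. Translation initiation factors, with none of 27 past 2-fold, had a median of -0.32, from EIF4G2 at -0.80 to EIF3B at 0.68.

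**Figure D4:**
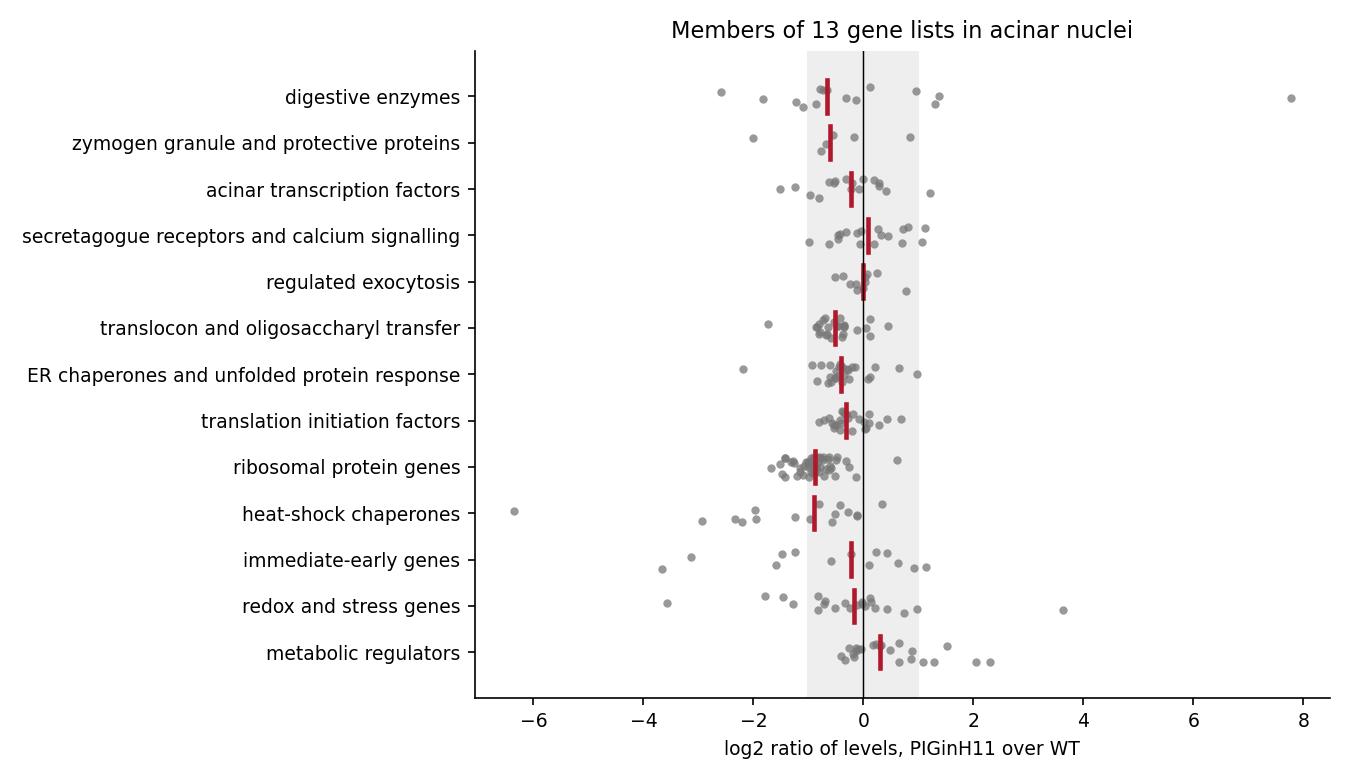
Log2 ratio of the level in PIGinH11 over that in WT acinar nuclei (x axis) for each tested member (grey points, spread vertically at random) of 13 gene lists (y axis), with the median of each list as a red line and ratios within 2-fold shaded. Among these 13 lists, ribosomal protein genes and heat-shock chaperones have the lowest medians, both -0.89, and metabolic regulators the highest, at 0.30.

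Heat-shock chaperones held the widest gap among the lower genes with a symbol and at least 10 normalised CPM in the higher library. Of 16 tested, 7 were 2-fold lower and none higher (median -0.89), beside 3.8% and 8.92% of all genes. HSP70.2, an inducible member of the HSP70 family on chromosome 7, 23925929 to 23927854, had 27771 UMIs in WT and 194 in PIGinH11, or 888 normalised CPM in WT and 10.9 in PIGinH11 (log2 ratio -6.35, 95% interval -6.57 to -6.15). Its RefSeq span lies inside that of HSPA1L, named for this overlap, which was also lower (173 UMIs in WT and 13 in PIGinH11, -2.93), and reads of overlapping or near-identical HSP70 genes may have been split between them. BAG3, a cochaperone of HSP70, had 112 normalised CPM in WT and 22.3 in PIGinH11 (-2.34), and HSP90AA1, the inducible HSP90, 553 normalised CPM in WT and 314 in PIGinH11 (-0.82). HSF1, the factor that induces the family, had 37.7 normalised CPM in WT and 47.8 in PIGinH11 (0.34). At 500 UMIs per nucleus, HSP70.2 had a UMI in 27.0% of WT acinar nuclei and in 5.08% of ductal and 21.7% of endothelial nuclei of WT. Endothelial and stellate nuclei held 35.2% as many of its UMIs per nucleus as acinar nuclei in WT and 424% in PIGinH11. Its log2 ratio was below 0 in ductal (-4.34), endocrine (-5.67), endothelial (-3.27) and stellate nuclei (-5.09) too.

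Immediate-early genes, which respond to stimuli and to tissue handling within minutes, were 2-fold lower in 5 and higher in 1 of 13 tested (median -0.23), beside 3.8% and 8.92% of all genes. FOS had 1315 UMIs in WT and 59 in PIGinH11 (log2 ratio -3.67, 95% interval -4.07 to -3.29), EGR1 4916 UMIs in WT and 321 in PIGinH11 (-3.13) and JUN 8433 UMIs in WT and 1605 in PIGinH11 (-1.59). MYC (0.24) and IER3 (0.63) stayed within 2-fold, and NR4A1, a nuclear receptor of the same response, was higher at 68 UMIs in WT and 85 in PIGinH11 (1.13). The strongest members by UMIs in WT, JUN and EGR1, were thus both lower in PIGinH11, and the sparse ones went either way.

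Among redox and stress genes, 4 of 22 tested were 2-fold lower and 1 higher (median -0.18), beside 3.8% and 8.92% of all genes. TXNIP, which binds and inhibits thioredoxin and is induced by glucose, had 402 normalised CPM in WT and 786 in PIGinH11 (log2 ratio 0.97, 95% interval 0.93 to 1.00), so that it lay just under 2-fold here and above it by CPM (1.13). Endothelial and stellate nuclei held 94.3% as many TXNIP UMIs per nucleus as acinar nuclei in WT and 52.0% in PIGinH11, and may express the gene themselves. With those UMIs subtracted the log2 ratio was 4.05. That value is uncertain, since the subtraction left 0.0807 UMIs per acinar nucleus in WT and no interval was computed. In ductal and endocrine nuclei TXNIP stood at 0.81 and 1.51. TNFAIP8, a regulator of apoptosis, was 12.3-fold higher in PIGinH11 (15.1 normalised CPM in WT and 186 in PIGinH11, log2 ratio 3.62, 95% interval 3.48 to 3.76). ATF5, a transcription factor of the stress response, was 11.9-fold lower (211 normalised CPM in WT and 17.7 in PIGinH11, log2 ratio -3.57, 95% interval -3.74 to -3.41). NFE2L2, the master factor of antioxidant genes, was level (172 normalised CPM in WT and 175 in PIGinH11, 0.02), and PRDX4, the peroxiredoxin of the ER, stood at -0.72. The ductal ratios of TNFAIP8 and ATF5 had the same signs with smaller sizes (1.5 and -1.29).

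Of the metabolic regulators, 5 of 23 tested were 2-fold higher in PIGinH11 and none lower (median 0.30), beside 8.92% and 3.8% of all genes. PDK4, the kinase that shuts off pyruvate dehydrogenase when fatty acids are burned, had 166 normalised CPM in WT and 475 in PIGinH11 (log2 ratio 1.52, 95% interval 1.47 to 1.57). PLIN2, which coats lipid droplets, had 135 UMIs in WT and 381 in PIGinH11 (log2 ratio 2.30, 95% interval 2.02 to 2.60). The other higher genes were CD36, a fatty acid transporter, PPARG, a factor of lipid storage, and MLXIPL, a glucose-sensing factor, named after their values were seen, with 752, 99 and 54 UMIs in WT and 910, 137 and 128 in PIGinH11. CD36 is also a gene of endothelial cells, and 6 of 10 tested genes of the endothelial list were 2-fold higher in PIGinH11 acinar nuclei. Both PPARG and MLXIPL lay under 10 normalised CPM, where 17.1% of all genes were 2-fold higher. INSR, the insulin receptor, and IGF1R were near level (-0.13 and -0.09), as was FOXO3 (-0.16). In ductal nuclei PLIN2 was higher as well (2.50), whereas PDK4 was near level there (0.08) and higher in endocrine nuclei (1.65). The pig counterparts of the transgenes were barely detected, with 12 and 16 UMIs of GIPR and 13 and 29 of PNPLA3 in WT and PIGinH11 acinar nuclei and 0 of IAPP, where 0 allows up to 3 UMIs per library.

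Among the 8183 tested genes with a symbol and at least 10 normalised CPM in the higher library, the most extreme ratios belonged mostly to genes that were near absent in 1 library. COL11A2, a fibrillar collagen chain on chromosome 7, 25204496 to 25234880, had 12 UMIs in WT and 6029 in PIGinH11 (log2 ratio 9.78, 95% interval 8.97 to 10.73), and its RefSeq neighbours RXRB and SLC39A7, named after their values were seen, stood at 0.71 and 0.08. In ductal nuclei COL11A2 was also higher (7.75). After CTRL, the next were TNNT1, a troponin of slow muscle (15 UMIs in WT and 643 in PIGinH11, 6.23), MPPED1 (5.74), GSDMD, the pore protein of pyroptosis (33 UMIs in WT and 783 in PIGinH11, 5.38), DUSP15 (5.06), PCBP3 (4.98), NELL1 (516 UMIs in WT and 5527 in PIGinH11, 4.23), MSLNL (3.72) and MEGF11 (3.71). NELL1, a secreted protein, and MEGF11, a membrane protein, both with EGF-like repeats, reached 309 and 250.2 normalised CPM in PIGinH11, and their ductal ratios were 1.53 and 1.70. CTRL (chromosome 6, 28540187 to 28542820) lies inside the RefSeq span of PSKH1 (0.76) and beside PSMB10, an immunoproteasome subunit (212 and 870 UMIs, 2.84), both named after their values were seen, and reads of CTRL and PSKH1 may not be told apart.

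At the other end, after HSP70.2, stood RDH16, a retinol dehydrogenase, with 6391 UMIs in WT and 55 in PIGinH11 (log2 ratio -6.05, 95% interval -6.46 to -5.67), and DIO1, the deiodinase that activates thyroid hormone (1548 UMIs in WT and 34 in PIGinH11, -4.70). They were followed by the kinase gene BMX (-4.16), RTL4 (-4.03), the phosphatase gene DUSP5 (-3.98), NPTXR (-3.83), CHAC1, a glutathione-degrading enzyme induced by ER stress (420 UMIs in WT and 17 in PIGinH11, -3.82), CPXM2 (3019 UMIs in WT and 126 in PIGinH11, -3.78) and FOS. RDH16 was less far apart in ductal (-1.88) and endocrine nuclei (-0.99), and CPXM2 was near level in endocrine nuclei (0.40). The difference of these ratios between classes was not tested.

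**Figure D5:**
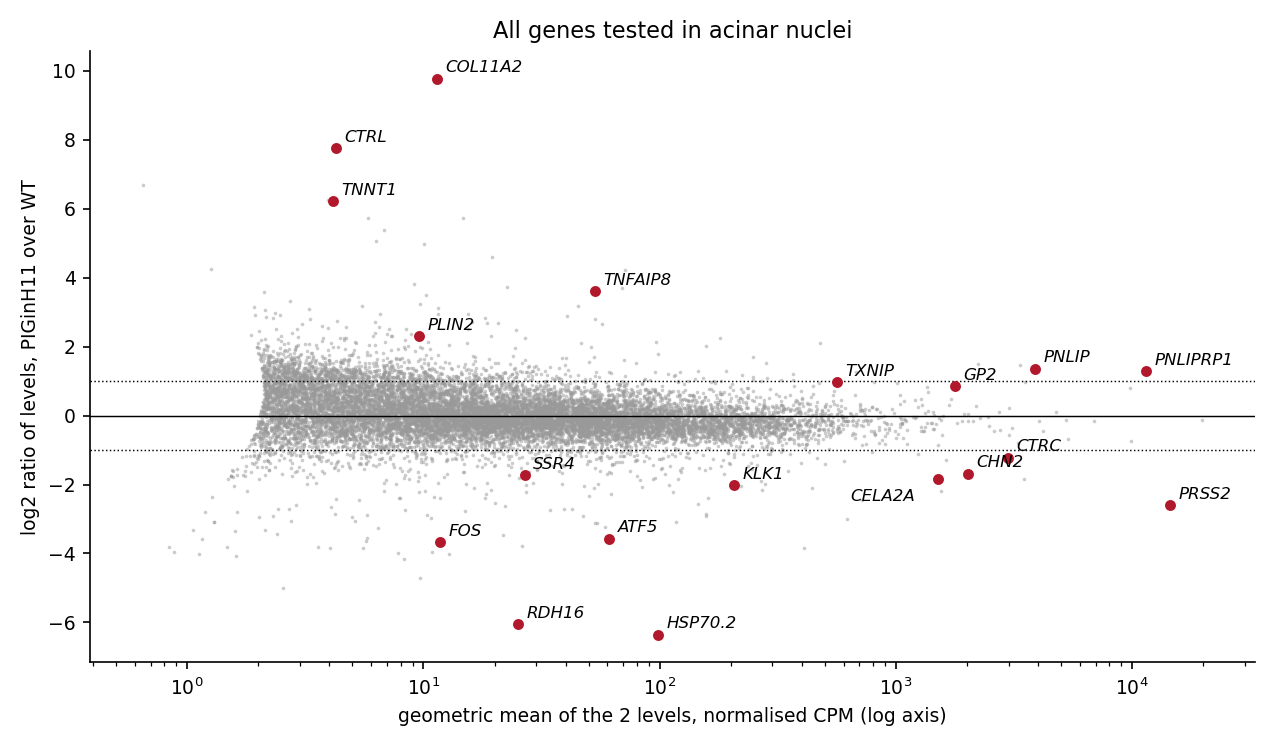
Log2 ratio of PIGinH11 over WT in acinar nuclei (y axis) against the geometric mean of both levels (x axis, normalised CPM, log axis) for the 13937 tested genes, with 19 named genes in red and dotted lines at 2-fold. Most genes lie within the lines, and PRSS2 and PNLIPRP1 stand out at high levels on opposite sides. COL11A2 and HSP70.2 mark the extremes among genes with a symbol and at least 10 normalised CPM in the higher library.

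RNA of genes typical of other cell types was present in acinar nuclei of both libraries, and its origin was not tested. Endothelial genes had 6 of 10 tested genes 2-fold higher in PIGinH11 and none lower (median 1.03), beside 8.92% of all genes and 17.1% of those under 10 normalised CPM, at a summed level of 112 normalised CPM in WT and 199 in PIGinH11, of which PECAM1 was the most abundant in both. VWF, which endothelial cells secrete, had 284 UMIs in WT and 434 in PIGinH11 (1.42), and none of the 11 listed genes was at 0. INS, the insulin gene of beta cells, had 205 normalised CPM in WT and 86.6 in PIGinH11 (log2 ratio -1.24, 95% interval -1.32 to -1.16), and endothelial and stellate nuclei held 142% and 75.7% as many INS UMIs per nucleus as acinar nuclei. The ductal genes that the rule limits were held at 0.0457% and 0.0481% of UMIs. The part of such RNA, and of the depth of 3102 against 1278 UMIs, in the ratios of low genes was not tested.

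Within each library, acinar nuclei were set in order by their enzyme share at 500 UMIs, and the 25% with the highest share (enzyme-rich) were compared with the 25% with the lowest (enzyme-poor) over the UMIs of all other genes with at least 20 UMIs, 0.5 UMIs added to each sum. Each set held 2215 nuclei in WT, with enzymes at 15.6% and 4.66% of UMIs, and 2374 in PIGinH11, at 8.88% and 3.69%. In WT the enzyme-rich nuclei were shallower before thinning (median 1610 against 4784 UMIs) and in PIGinH11 deeper (1627 against 1129). Granule proteins were 2-fold higher in the enzyme-rich nuclei for 3 of 6 genes in WT (median log2 ratio 0.98) and 0 of 6 in PIGinH11 (0.55), beside 6.91% and 3.01% of all genes compared. SYCN stood at 1.58 and 0.58 and KLK1 at 1.8 and 0.69. No free RNA was subtracted here, neither from the enzyme share that ordered the nuclei nor from these genes. Endothelial and stellate nuclei held 62.8% and 23.0% as many KLK1 UMIs per nucleus as acinar nuclei in WT and PIGinH11, and 34.9% and 19.2% for SYCN. For genes present in free RNA, a rise with the enzyme share therefore cannot be told apart from a rise in free RNA. As the rule limits the ductal genes SLC4A4, PKHD1 and SCTR, their medians of 1.20 in WT and -0.20 in PIGinH11 are given as a description only. PDIA2 had log2 ratios of 1.32 and 0.61. The transcription factors had medians of -0.11 and 0.09, with none past 2-fold.

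For other groups the values of the libraries lay apart. Translocon genes of the enzyme-rich nuclei had a median of -0.0039 in WT, with 3 of 24 2-fold higher and 0 lower, and of 0.32 in PIGinH11, with 1 of 25 higher and 1 lower, and ER chaperones had medians of -0.14 and 0.29. Ribosomal protein genes had a median of 1.59 in WT, where 48 of 54 passed 2-fold, and 0.65 in PIGinH11, where 8 did. Mitochondrial genes had 2.14 and 0.25. Against this, 615 of all 8906 genes compared were 2-fold higher and 172 lower in enzyme-rich nuclei of WT (6.91% higher), and 307 and 591 of 10183 in those of PIGinH11 (3.01% higher). TXNIP had -0.70 in WT and 0.56 in PIGinH11, and HSP70.2 -0.71 in WT, all within 2-fold. Genes typical of other cell types moved with the sets too, since INS was higher in the rich nuclei of WT (1.78) and near level in PIGinH11 (0.10), and stellate genes were lower in the rich nuclei of PIGinH11 (median -1.99 over 6 genes). Nuclei of 1 pig share their animal and library, and the sets were therefore not tested.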

How the data were processed

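Nuclei of 1 WT and 1 PIGinH11 pancreas were sequenced with the 10x Genomics 3' kit. The authors aligned reads to Sscrofa11.1 and counted UMIs with Cell Ranger (3.1.0 in the methods, 5.0.0 in the file headers), and the deposited values are raw UMI counts per gene and barcode. Barcodes outside the gene limits of the authors are still among them. Of 31908 genes, 15410 had no symbol, of which 841 were named from the RefSeq table of the same assembly, which also gave the coordinates. The methods print a UMI limit of 1300, and 13000 was used instead. Ductal nuclei needed at least 1%, and endocrine, endothelial and stellate nuclei 0.5%, of UMIs in their own markers. Counts were summed over nuclei, and genes with at least 100 UMIs over both libraries were tested against a 2-fold limit. Factors of 1.06 (WT) and 0.945 (PIGinH11) set the median gene level, and ratios in other classes were scaled so that their median gene had the acinar level of its library. Exact 95% intervals were Clopper-Pearson for shares, Poisson for counts and conditional binomial for ratios. Doublets were kept in the values given, and Scrublet was an alternative. Free RNA was subtracted for the digestive enzymes, granule proteins, markers and a few other genes, and not across all genes. Genes were named by rule: the markers, enzymes, granule proteins and transcription factors, up to 4 most abundant and the 2 extreme members of each other list, the 10 highest and 10 lowest ratios at 10 or more normalised CPM, the 10 most abundant genes, and genes the study discusses. The members and lists were chosen with earlier results of these data known. Alternatives were other marker, UMI, mitochondrial and doublet limits, thinning, weights, scalings and floors. Promoter sequences were not analysed here. The ratio step and the marker rule were tested on simulated data in which free RNA was not modelled. Free RNA subtraction, thinning, the scaling of other classes and the comparison of enzyme-rich with enzyme-poor nuclei were not tested in this way. Python 3.11.15, scipy 1.17.1 and scanpy 1.11.5 were used.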

Additional observations from a re-analysis of the deposited data

Results flagged for a closer look

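JUN, which encodes a subunit of the AP-1 factor, and TRIB3, a pseudokinase induced by stress, stood on opposite sides of 0 in acinar and ductal nuclei. JUN had a log2 ratio of PIGinH11 over WT of -1.59 in acinar and 1.07 in ductal nuclei. TRIB3 had -2.18 in acinar and 1.38 in ductal nuclei, with 119 and 15 UMIs in the acinar nuclei of WT and PIGinH11. No interval was computed for the ductal ratios, and that of TRIB3, a sparse gene, may rest on few UMIs. With 1 library per group, the difference between the classes was not tested for either gene.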

How the results depend on the processing

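The alternatives changed the size of several results. At a marker share of at least 0.4%, acinar nuclei were 65.4% in PIGinH11 and enzymes held 8.65% (WT) and 6.40% (PIGinH11) of UMIs, and at 1% acinar nuclei were 63.0% and 53.5% and enzymes 7.89% and 6.39%. With Scrublet doublets removed the values were 68.1% and 65.8%, and 8.51% and 6.52%. With the rule applied at 500 UMIs they were 60.1% and 55.5%, and 8.40% and 6.46%. Under a UMI limit of 1300, acinar nuclei were 60% and 58.9%, and enzymes held 12.5% and 5.72%. Of 7265 genes tested there, 320 (4.4%) were higher and 295 (4.06%) lower, with 8 enzymes and 49 ribosomal protein genes lower. With each nucleus weighted alike, enzymes held 8.99% and 6.06%, 6 enzymes were lower, with CLPS and RNASE1 at -1.14, and 36 ribosomal protein genes were lower. Thinned to 500 UMIs, enzymes held 9.01% and 6.06%. Of 8815 genes tested after thinning, 585 (6.64%) were higher and 297 (3.37%) lower, with 6 enzymes (CLPS at -1.06, RNASE1 at -1.09) and 27 ribosomal protein genes lower. CELA1 turned to -0.05 with equal weights, -0.13 thinned and -0.64 under the limit of 1300, under which CPA1 (-1.26) and CPB1 (-1.34) passed 2-fold and PNLIP (0.17) did not. The granule genes SERPINI2, SPINK1 and SYCN, and TXNIP, all within 2-fold in the main result, also passed it under the limit of 1300. A floor of 20 UMIs gave 2660 (13.7%) higher and 1062 (5.45%) lower of 19480 genes, with 29 ribosomal protein genes lower. A floor of 500 gave 363 (4.16%) and 248 (2.85%) of 8716. By CPM 10 ribosomal protein genes were lower. With free RNA subtracted, enzymes held 4.34% and 5.64%, with 1 lower and 5 higher, the order of the shares turned, and CEL (0.0022), CTRC (0.01), PLA2G1B (0.04), CLPS (0.81) and, uncertain for its low counts, RNASE1 (1.35) changed sign among the enzymes. The floors test more (20 UMIs) or fewer genes (500 UMIs), and the other causes were not tested. The requirement of 5 marker UMIs and the limit of 10% mitochondrial UMIs left these values within their intervals. With 1 library per group no replicate could be left out. No paired analysis was possible because each group holds 1 library. Depth limits the sparse genes most, and the counting intervals do not cover differences between pigs.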

Other observations

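Transporters and enzymes of amino acid supply, which feed protein synthesis in the acinar cell, had 3 of 20 tested genes 2-fold lower in PIGinH11 and none higher, with a median log2 ratio of -0.12, beside 3.8% and 8.92% of all genes. ARG2, the mitochondrial arginase, had 416 UMIs in WT and 65 in PIGinH11 (log2 ratio -1.87, 95% interval -2.27 to -1.49), and SLC1A5 and SLC7A5, transporters of glutamine and of large neutral amino acids and named after their values were seen, -1.06 and -1.17. GATM, the first enzyme of creatine synthesis and a strong acinar gene, was level (955 normalised CPM in WT and 1012 in PIGinH11, 0.08).

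Genes of ducts and of acinar to ductal metaplasia had 2 of 16 tested genes higher and 2 lower (median 0.33), beside the same shares of all genes. TFF2, a trefoil peptide of mucous cells, had 19099 UMIs in WT and 3574 in PIGinH11 (log2 ratio -1.61, 95% interval -1.66 to -1.56), or -0.45 and under 2-fold with free RNA subtracted, where endothelial and stellate nuclei held 69.0% and 30.7% as many of its UMIs per nucleus. SPP1 (osteopontin) had 201 UMIs in WT and 29 in PIGinH11 (-1.99) and KRT7, a duct keratin, 65 UMIs in WT and 85 in PIGinH11 (1.19). SKAP1, an adaptor of T cells, was the most abundant gene of the lymphocyte list in both libraries (964 normalised CPM in WT and 535 in PIGinH11, -0.85). Beside 8.92% of all genes higher and 3.8% lower, or 17.1% and 3.86% of those under 10 normalised CPM, endocrine genes had 2 of 9 higher and 2 lower, stellate genes 0 of 9 and 1, mural genes 2 of 3 and 0, macrophage genes 1 of 2 and 0, lymphocyte genes 1 of 4 and 0, adipocyte genes 1 of 3 and 0, and erythrocyte genes 0 of 1 and 0. FABP4, a fatty acid carrier of fat cells, had 2.72 normalised CPM in WT and 8.28 in PIGinH11 (1.61).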
